A study of Mus musculus with 12 samples.

Results

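Retinal cell genes were followed in RNA from the lens capsule and the lens cells (LCs) attached to it. The set held 38 of the 45859 genes in the deposited tables, picked by symbol as textbook markers of the cell classes of the retina. It was chosen with earlier results of these data known, so counts of calls over it are not an independent test. It was made of 10 genes of rod photoreceptors, 8 genes that rods and cones share, 7 genes of cones, 4 genes of bipolar cells, 5 genes of amacrine and ganglion cells and 4 genes of Müller glia and the pigment epithelium. All 38 symbols were found, on 15 chromosomes. The libraries came from 2-month-old mice whose lens fiber cells had been removed through an incision of the cornea, a model of human cataract surgery. Capsules were taken either immediately (0 h) or 24 h post cataract surgery (PCS), with 3 libraries per group and 12 in all, each from several pooled capsules. WT mice were C57BL/6. In β8ITG-cKO mice, on a mixed background of C57BL/6 and 129S1/Sv, a Cre transgene (MLR10) that is active in all lens cells removed a floxed part of the integrin β8 gene. Genotype and strain background therefore cannot be told apart here, and no unoperated lens was among the libraries used here.

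Rods and cones are the light-sensing neurons of the retina. In their outer segments, light activates the G protein transducin, transducin activates a phosphodiesterase that breaks down cyclic GMP, and cyclic-nucleotide-gated channels close. Bipolar cells pass the signal to amacrine and ganglion cells, Müller glia span the retina, and the pigment epithelium behind it regenerates the visual chromophore. The lens is a separate tissue of epithelial and fiber cells, and some of the 38 genes, among them Glul and Prkca, are also made in many cells outside the retina.

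The labelled tissue was visible in every library. The lens markers Cryab, Pax6, Foxe3 and Cdh1 together had between 3098 and 14675 FPKM (fragments per kilobase of transcript, scaled to the library's mapped fragments, the unit of the deposited tables), most of it from Cryab. Pax6 had 59.9 to 93.5 FPKM and Cdh1 37.7 to 98.3 FPKM over the 12 libraries. The 38 retinal genes together made up between 0.0451% and 0.254% of the summed FPKM of a library. Itgb8, the targeted gene, had 7.26 to 10.8 FPKM in WT and 4.58 to 11.8 FPKM in β8ITG-cKO, which overlapped. A value for the whole gene does not check a deletion of part of it. As the tables hold FPKM and no counts, sequencing depth is unknown. Among the WT libraries at 0 h, replicate 2 stood apart: its FPKM for the 18 rod and shared photoreceptor genes were 3.61 to 12.6 times those of replicate 3, with a median of 7.74, where the median over 14779 genes was 1.15. Counts of calls and medians that use the WT libraries at 0 h are therefore also given without replicate 2.

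Sequence upstream of the genes was read from RefSeq promoters on GRCm38.p6, which covered 30 of the 38 genes. The homeobox factor Crx, itself one of the genes followed, binds DNA at a core that can be written TAATCC, or GGATTA on the other strand. These letters occurred in the 250 bases before the start of 8 of the 13 rod and shared photoreceptor genes with a promoter in the table, 1 of 6 cone genes, 2 of 4 bipolar genes, 1 of 3 amacrine and ganglion genes and 2 of 4 genes of Müller glia and the pigment epithelium, and in 7.21% of all 27025 genes. The 4 windows below are shown since they span the patterns in the data. Of the 18 rod and shared photoreceptor genes, Rbp3 had the largest log2 difference between the genotypes at 24 h and Crx the largest ratio of means, Gnat2 is the cone counterpart of the rod gene Gnat1, and Rpe65, of the pigment epithelium, was near 0 in both genotypes at 24 h. Capitals mark the Crx core. The windows are chr14:33953753-33954002 (plus strand) for Rbp3, chr7:15879956-15880205 (minus strand) for Crx, chr3:108092816-108093065 (plus strand) for Gnat2 and chr3:159598931-159599180 (plus strand) for Rpe65.
Rbp3: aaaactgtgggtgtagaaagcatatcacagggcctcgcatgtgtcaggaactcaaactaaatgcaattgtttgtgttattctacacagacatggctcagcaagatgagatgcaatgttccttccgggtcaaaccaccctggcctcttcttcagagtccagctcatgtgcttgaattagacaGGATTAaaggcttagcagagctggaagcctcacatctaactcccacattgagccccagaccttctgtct
Crx: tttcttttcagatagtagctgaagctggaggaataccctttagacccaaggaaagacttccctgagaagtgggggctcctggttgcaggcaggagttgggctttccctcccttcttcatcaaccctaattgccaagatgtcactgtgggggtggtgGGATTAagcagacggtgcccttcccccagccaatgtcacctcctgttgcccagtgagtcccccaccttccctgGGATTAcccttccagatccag
Gnat2: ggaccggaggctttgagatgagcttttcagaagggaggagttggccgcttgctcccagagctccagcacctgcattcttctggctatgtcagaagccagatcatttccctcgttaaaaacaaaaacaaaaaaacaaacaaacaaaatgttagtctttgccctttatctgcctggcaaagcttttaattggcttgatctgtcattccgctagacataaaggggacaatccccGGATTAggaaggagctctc
Rpe65: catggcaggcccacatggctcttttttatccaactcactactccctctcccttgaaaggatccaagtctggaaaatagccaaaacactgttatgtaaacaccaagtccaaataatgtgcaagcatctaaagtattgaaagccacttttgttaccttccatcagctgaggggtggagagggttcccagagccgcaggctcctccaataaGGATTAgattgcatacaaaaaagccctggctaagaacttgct
The Crx window held 2 cores, with 88 and 15 bases between core and gene start, and the other windows held 1 each, with 63 bases for Rbp3, 13 for Gnat2 and 36 for Rpe65. The core was thus present upstream of genes that differed between the genotypes at 24 h and of one that was too low to be tested there. A second motif, TGCTGA or TCAGCA, which is a half-site of the rod factor Nrl, occurred in 3 of the 13 windows and in 18.02% of all genes. A match is a run of letters and was not tested for binding.

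Levels of the retinal genes differed by cell class. Rod genes together had 110 to 852 FPKM in WT at 0 h, 58.6 to 128 FPKM in WT at 24 h, 134 to 253 FPKM in β8ITG-cKO at 0 h and 624 to 779 FPKM in β8ITG-cKO at 24 h. Genes shared by rods and cones had 48.9 to 360 FPKM, 27.6 to 48.0 FPKM, 69.3 to 105 FPKM and 350 to 381 FPKM in the same order. Cone genes together never passed 20.2 FPKM in any library, and rod genes summed to between 30.5 and 89.2 times the cone genes. In bulk RNA, fewer cells of a type and less RNA per cell cannot be told apart.

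**Figure D1:**
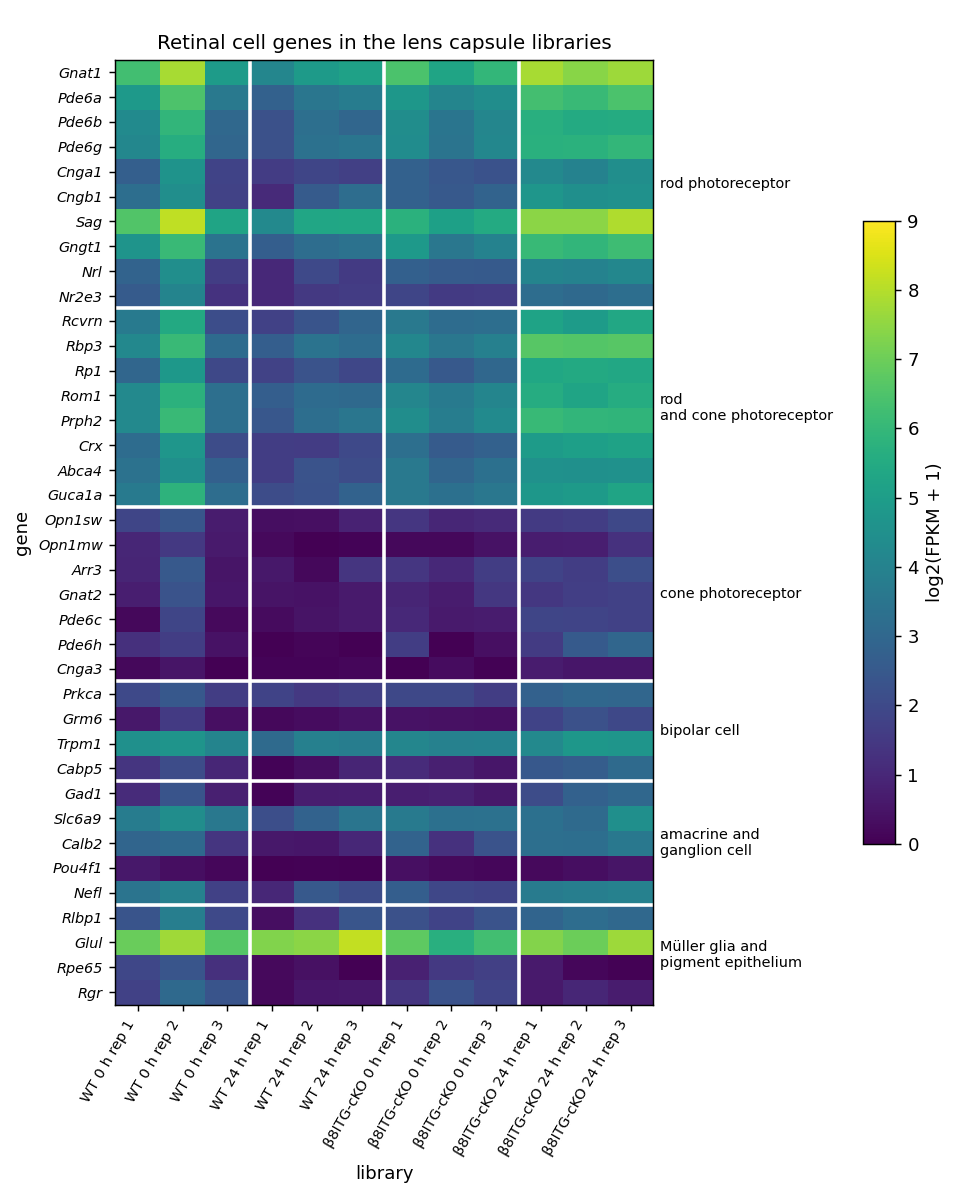
Each cell shows log2(FPKM + 1) of 1 gene (rows, in class order) in 1 library (columns, by group and replicate). Rod and shared photoreceptor genes are bright in the 3 β8ITG-cKO libraries at 24 h and in WT 0 h replicate 2, while cone genes are dark throughout and Glul is bright in all 12 libraries.

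At 24 h PCS the rod and shared photoreceptor genes were higher in β8ITG-cKO than in WT. The 18 rod and shared photoreceptor genes summed to 1072 ± 93.7 FPKM in β8ITG-cKO and 141 ± 48.2 FPKM in WT (mean ± SD, n = 3 each), a ratio of 7.60. A gene was called when its limma-trend test on log2(FPKM + 1) gave an adjusted p of at most 0.05 and its group means differed more than 2-fold and by more than 2 FPKM, with at least 2 FPKM in 1 group. By that rule all 18 were called higher, and all but Cngb1 under every alternative run, with log2 differences from 1.82 for Nr2e3 to 3.55 for Rbp3. Of the 38 genes, 34 were tested, 26 were called higher and 0 lower, beside 3.37% of all 15366 genes tested that were called higher and 0.286% called lower. The median log2 difference was 2.41 over the 34 and 0.03 over all genes. The groups did not overlap, with WT below, in 32 of the 34 and in 17.5% of all genes tested.

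Passing the filter of a mean of 0.5 FPKM over the 6 libraries was itself tied to the level in β8ITG-cKO for some genes. For Opn1sw, Gnat2, Pde6c, Pde6h, Grm6, Cabp5, Gad1 and Rgr the WT mean lay under 0.5 FPKM, and 5 of these 8 were called. The other 21 calls were for genes above the filter in both groups. Opn1mw, Cnga3, Pou4f1 and Rpe65 were not tested at 24 h. Without the filter, all 38 were tested, 24 were called and the median log2 difference was 2.31. The share of all genes called without the filter is not given.

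**Figure D2:**
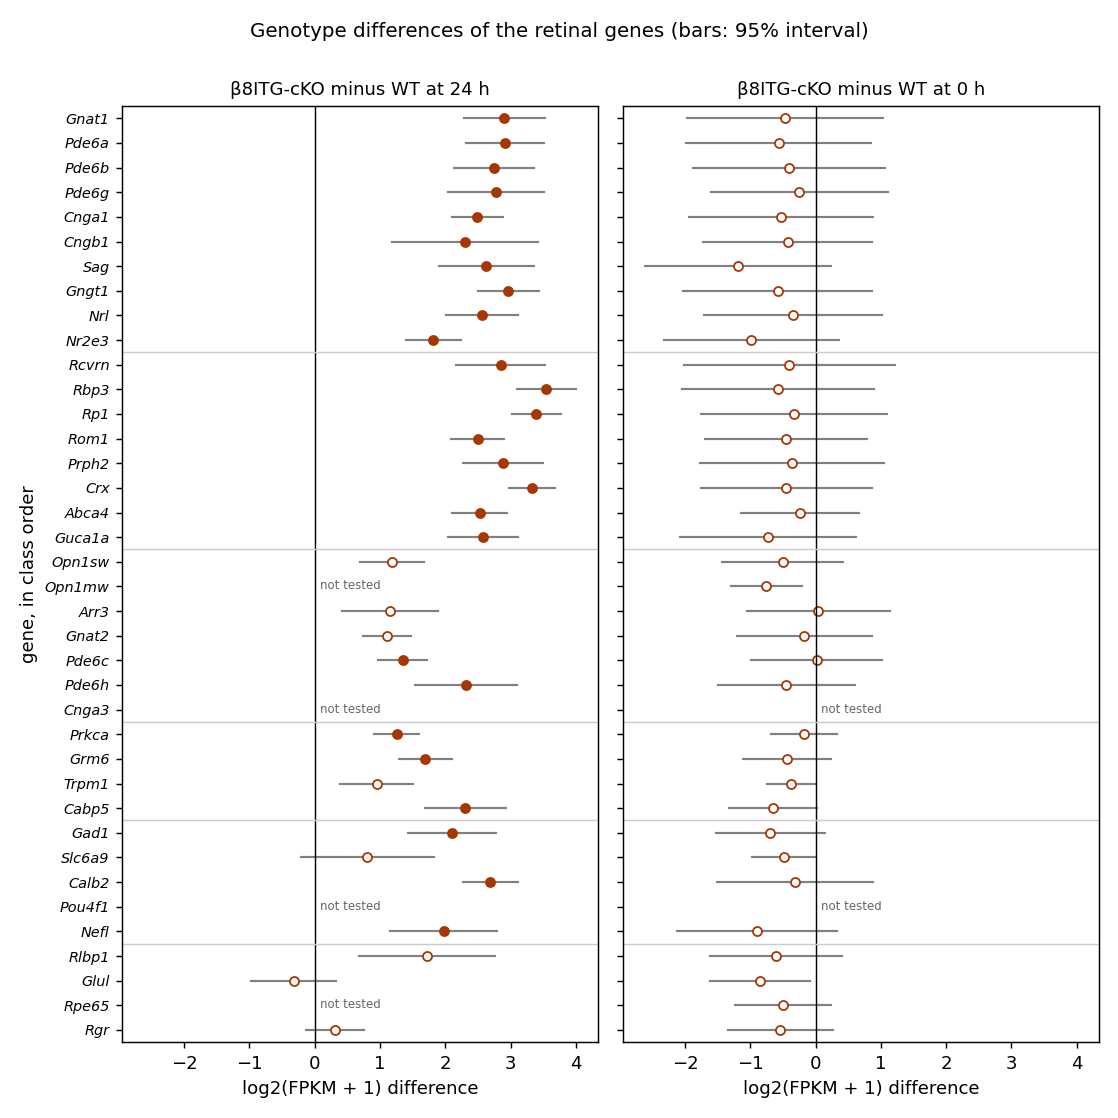
Difference between β8ITG-cKO and WT on the log2(FPKM + 1) scale (x axis) for each gene (y axis, in class order) at 24 h (left) and 0 h (right), with the 95% interval of the limma-trend fit, 3 libraries per group. Filled points are called; 26 are filled at 24 h, and none at 0 h, where most intervals span 0.

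Among the rod genes, Sag, which encodes the arrestin that quenches the light response in rods, had the highest mean over the 12 libraries. In β8ITG-cKO it was at 172, 173 and 241 FPKM and in WT at 17.98, 38.7 and 39.8 FPKM, both at 24 h. The lowest β8ITG-cKO library thus lay far above the highest WT library, with a log2 difference of 2.63 (standard error 0.31, adjusted p = 0.0039, limma-trend with Benjamini-Hochberg adjustment). Gnat1, the α subunit of rod transducin, had 228, 168 and 203 FPKM against 16.7, 28.7 and 34.9 FPKM, a log2 difference of 2.90 (0.27, adjusted p = 0.00162, limma-trend). Pde6a, a catalytic subunit of the rod phosphodiesterase, had 78.1, 67.7 and 86.0 FPKM against 5.90, 10.4 and 12.9 FPKM. Its log2 difference of 2.92 was close to those of the other subunits of the same enzyme, 2.75 for the catalytic Pde6b and 2.77 for the inhibitory Pde6g. Gngt1, the γ subunit of rod transducin, had 66.1, 59.5 and 73.5 FPKM against 5.49, 8.29 and 9.49 FPKM, again with no overlap.

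Pde6g was at 51.8, 52.2 and 60.9 FPKM in β8ITG-cKO and 3.71, 9.32 and 10.2 FPKM in WT. For Cnga1, the α subunit of the rod cyclic-nucleotide-gated channel, the values were 17.8, 14.9 and 20.9 FPKM against 2.01, 2.72 and 2.27 FPKM. Its partner Cngb1 had 25.4, 21.6 and 22.6 FPKM against 1.11, 4.94 and 8.28 FPKM, and its adjusted p of 0.0318 (limma-trend) was the highest of the class. Cngb1 was not called with a pseudocount of 0.1, with no filter on low values, without WT 24 h replicate 2 or without any 1 of the β8ITG-cKO 24 h libraries, each of which left 17 of the 18 called, with log2 differences from 1.70 to 2.77 over the libraries left out. The transcription factors Nrl and Nr2e3, which set rod identity, had log2 differences of 2.57 and 1.82. Over the 12 libraries Pde6b ranged from 3.68 to 59.7 FPKM, Nrl from 1.03 to 20.6 FPKM and Nr2e3 from 1.03 to 15.5 FPKM.

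Genes that rods and cones share had a median log2 difference of 2.87, where rod genes had 2.69; the difference between the classes was not tested. Rbp3, the retinoid-binding protein of the space between photoreceptors and pigment epithelium, was at 101, 95.9 and 99.9 FPKM in β8ITG-cKO and 5.39, 9.65 and 8.10 FPKM in WT, a log2 difference of 3.55 (standard error 0.19). Prph2, a structural protein of the outer segment discs, was at 66.7, 59.0 and 58.7 FPKM against 4.50, 8.56 and 10.5 FPKM. Its partner Rom1 was at 47.0, 37.1 and 46.5 FPKM against 5.40, 7.88 and 7.48 FPKM. For these genes too the groups were far apart, with no overlap. Guca1a, an activator of the guanylate cyclase that rebuilds cyclic GMP, was at 25.9, 29.3 and 37.3 FPKM against 3.27, 3.81 and 6.20 FPKM. The other 4 genes of the class, Rcvrn, Rp1, Crx and Abca4, had log2 differences from 2.53 to 3.40, and the ratio of group means ran from 6.29 for Rom1 to 13.7 for Crx. Rcvrn, a calcium sensor, ranged from 2.34 to 43.0 FPKM over the 12 libraries, Rp1 from 2.44 to 43.4 FPKM and Crx from 2.05 to 34.97 FPKM.

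Cone genes moved the same way at levels near the lower limit of what was tested. All 7 had a higher mean in β8ITG-cKO at 24 h, and 2 of the 5 that were tested were called. Pde6h, the inhibitory subunit of the cone phosphodiesterase, was at 1.96, 4.80 and 6.88 FPKM in β8ITG-cKO and listed at 0, 0.0856 and 0 FPKM in WT, with a log2 difference of 2.32 (standard error 0.33, adjusted p = 0.00753, limma-trend). No ratio is given, as a listed 0 may stand for an estimate that failed. Pde6c, the catalytic subunit of that enzyme, was at 2.67, 2.59 and 2.35 FPKM against 0.206, 0.392 and 0.585 FPKM. The called cone genes thus lay between 1.96 and 6.88 FPKM in β8ITG-cKO.

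Gnat2 and Opn1sw, the cone transducin α subunit and the short-wavelength opsin, had adjusted p-values of 0.00693 and 0.0169 (limma-trend) and missed the call through the rule of a 2 FPKM difference. Gnat2 was at 1.76, 2.21 and 2.33 FPKM against 0.378, 0.366 and 0.562 FPKM, and Opn1sw at 1.91, 2.08 and 2.87 FPKM against 0.266, 0.280 and 0.837 FPKM. For Arr3, the cone arrestin, the values were 2.54, 2.14 and 3.45 FPKM against 0.478, 0.133 and 1.64 FPKM, with an adjusted p of 0.0804 (limma-trend). The groups of these 3 genes did not overlap either. Opn1mw, the middle-wavelength opsin, ranged from 0 to 1.84 FPKM over the 12 libraries and was not tested at 24 h. Cnga3, the cone channel subunit, stayed at 0.607 FPKM or less in all 12 libraries and was not tested, while its rod counterpart Cnga1 had 2.01 FPKM or more in each.

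Bipolar cell genes split by gene. Cabp5, a calcium-binding protein of bipolar cells, was at 4.62, 5.28 and 7.72 FPKM in β8ITG-cKO and 0.0589, 0.260 and 0.890 FPKM in WT at 24 h. Grm6, the glutamate receptor of ON bipolar cells, was at 2.49, 3.75 and 2.85 FPKM against 0.134, 0.217 and 0.359 FPKM. Prkca, a kinase abundant in rod bipolar cells and also made in other tissues, was at 5.98, 7.05 and 6.77 FPKM against 2.50, 1.82 and 2.25 FPKM. These 3 genes were called. Trpm1, the channel that Grm6 controls and also a gene of pigment cells, had 17.9, 26.0 and 25.0 FPKM against 7.74, 14.0 and 12.98 FPKM, a log2 difference of 0.95 (95% interval 0.38 to 1.51, adjusted p = 0.0658, limma-trend). Unlike the other 3, Trpm1 had 7.74 FPKM or more in all 12 libraries.

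Among the genes of amacrine and ganglion cells, Calb2 encodes the calcium buffer calretinin. It was at 8.85, 8.59 and 11.3 FPKM in β8ITG-cKO and 0.503, 0.452 and 0.979 FPKM in WT. The log2 difference was 2.69 (standard error 0.18, adjusted p = 0.000764, limma-trend). Gad1, which makes the transmitter GABA, was at 3.21, 6.02 and 6.95 FPKM against 0.0756, 0.635 and 0.681 FPKM. Nefl, the light neurofilament chain, was at 12.3, 13.4 and 14.6 FPKM against 1.01, 4.77 and 3.21 FPKM. All 3 were called, and Nefl was not without any 1 of the β8ITG-cKO 24 h libraries. Slc6a9, a glycine transporter, was at 8.93, 7.63 and 21.5 FPKM against 3.50, 6.05 and 10.4 FPKM, so that the groups overlapped (log2 difference 0.81, 95% interval -0.22 to 1.83). Pou4f1, a ganglion cell transcription factor, never passed 0.509 FPKM and was not tested.

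Of the genes of Müller glia and the pigment epithelium, 3 were tested at 24 h and 0 were called, though Rlbp1 was called without WT 24 h replicate 3 and in 1 fit over all 4 groups. Glul, the glutamine synthetase of Müller glia and of many other cells, was the most abundant of the 38, at 159, 124 and 205 FPKM in β8ITG-cKO and 158, 173 and 289 FPKM in WT, with a log2 difference of -0.32 (95% interval -0.97 to 0.33). Rlbp1, a retinoid carrier of both cell types, was at 6.53, 8.27 and 7.31 FPKM against 0.275, 1.45 and 4.12 FPKM, which did not overlap (log2 difference 1.73, 95% interval 0.68 to 2.77, adjusted p = 0.0686, limma-trend). Rpe65, the isomerase of the visual cycle in the pigment epithelium, was at 0.573, 0.110 and 0.0417 FPKM against 0.159, 0.339 and 0.0204 FPKM. Rgr, an opsin of the pigment epithelium and Müller glia, was at 0.521, 0.960 and 0.603 FPKM against 0.136, 0.474 and 0.491 FPKM, with a log2 difference of 0.31 (95% interval -0.13 to 0.75). Both lay under 1 FPKM in all 6 libraries while the rod genes of the same libraries ran to 241 FPKM.

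**Figure D3:**
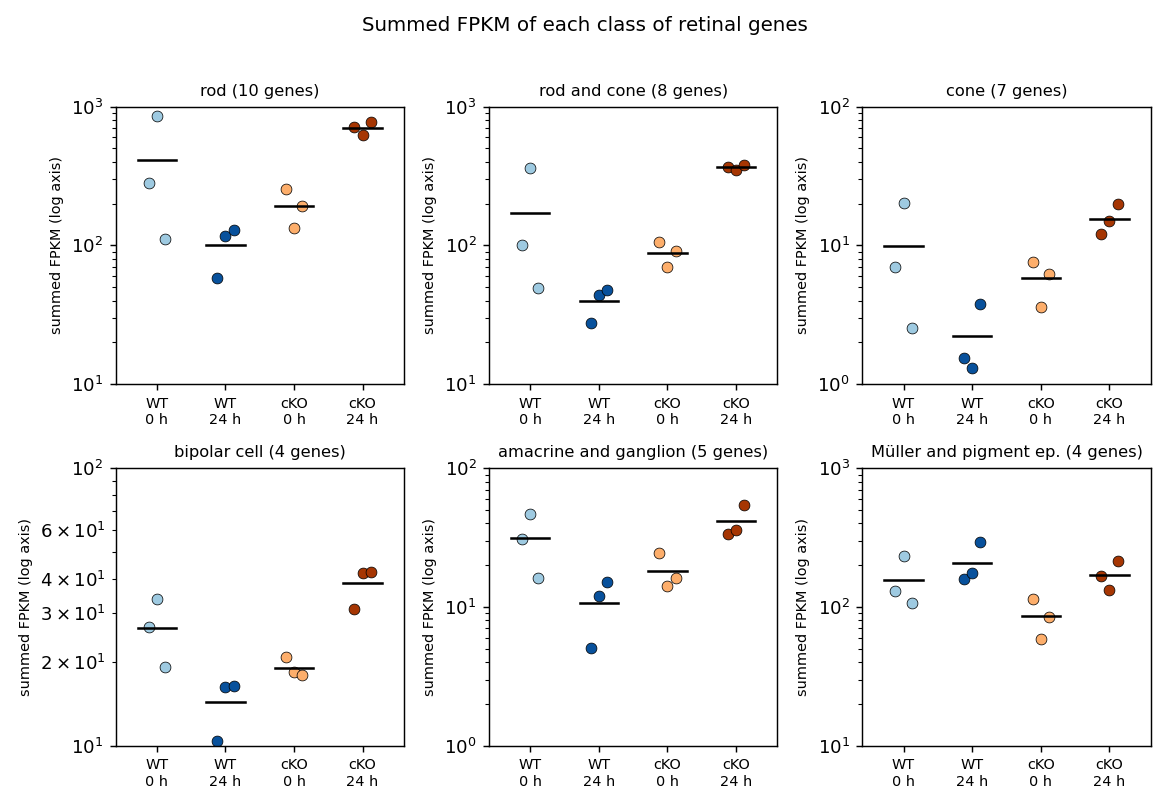
Summed FPKM of the genes of each class (y axes, log scale, 1 panel per class) in the 4 groups, with 1 point per library and a line at the mean of 3 libraries. In the rod, shared photoreceptor, cone, bipolar and amacrine and ganglion panels every β8ITG-cKO library at 24 h lies above every WT library at 24 h, while the sums of Müller glia and pigment epithelium genes, which are mostly Glul, overlap.

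At 0 h none of the genes was called between the genotypes. Of 36 tested, 0 were called by limma-trend, beside 1.35% of all genes called higher and 1.18% called lower. The limma-trend p before adjustment was under 0.05 for Opn1mw, Trpm1 and Glul, all lower in β8ITG-cKO. No share of all genes at that threshold is given. Opn1mw passed the filter only through its level in WT, with means of 1.13 FPKM there and 0.223 FPKM in β8ITG-cKO. All 18 rod and shared photoreceptor genes had a lower mean in β8ITG-cKO than in WT, with a median log2 difference of -0.45. That order rested on WT 0 h replicate 2: without it the median was 0.23, the differences of all but Sag and Nr2e3 turned positive, and 0 were called. Over all 33 genes then tested the median was 0.11. Sag was at 92.1, 281 and 36.8 FPKM in WT and 52.4, 33.9 and 44.1 FPKM in β8ITG-cKO, with a log2 difference of -1.19 (95% interval -2.61 to 0.24). Gnat1 was at 76.7, 227 and 29.9 FPKM against 85.6, 37.0 and 60.7 FPKM, so that WT held both the highest and the lowest library. The median coefficient of variation of the 18 genes was 95.7% in WT at 0 h and 22.5% in β8ITG-cKO at 0 h, and 17.4% and 13.9% over all genes of at least 0.5 FPKM.

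The change between 0 h and 24 h was compared within each genotype. In WT the 18 rod and shared photoreceptor genes summed to 384, 1212 and 159 FPKM at 0 h and 86.2, 161 and 176 FPKM at 24 h. The lowest library at 0 h thus overlapped the upper libraries at 24 h. Of 36 genes tested in WT, 0 were called higher and 5 lower (Abca4, Slc6a9, Calb2, Rpe65 and Rgr), beside 10.3% of all genes called higher and 3.92% called lower, with a median log2 difference of -1.30 over the 36 and 0.16 over all genes. Without WT 0 h replicate 2 the median was -0.74 over the 31 then tested. Of the 36, 10 had a mean under 0.5 FPKM in 1 of the groups, among them the called Rpe65 and Rgr, which passed the filter only through their level at 0 h. The count in WT was unstable: it was 3 without WT 0 h replicate 2, 23 without WT 0 h replicate 3, 2 without WT 0 h replicate 1 or WT 24 h replicate 2, 3 without WT 24 h replicate 1, and 17 when 1 fit over all 4 groups estimated the spread. With each library scaled to a common median FPKM, 10 were called, and calls over all genes were 983 higher and 963 lower in place of 1566 and 593. The share of all genes called under the other alternatives is not given, so these counts are not set against it. The median of the 18 photoreceptor genes was -1.47, and -0.76 without WT 0 h replicate 2.

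Abca4, a transporter of retinoids in the photoreceptor discs, had 9.50, 21.1 and 5.85 FPKM at 0 h and 2.14, 3.97 and 3.22 FPKM at 24 h in WT, with a log2 difference of -1.53 (standard error 0.40, adjusted p = 0.0253, limma-trend). Its call was lost without WT 0 h replicate 1 or without WT 24 h replicate 1 or 2, and the difference ran from -1.92 to -1.07 with 1 library left out. It was the only one of the 18 called in this comparison. Calb2 had 6.61, 7.53 and 1.62 FPKM at 0 h and 0.503, 0.452 and 0.979 FPKM at 24 h, a log2 difference of -1.77 that ran from -2.31 to -1.46 with 1 library left out and was not called without WT 0 h replicate 1 or 2 or without WT 24 h replicate 2. Slc6a9 fell from 12.6, 20.3 and 11.3 FPKM to 3.50, 6.05 and 10.4 FPKM, with an adjusted p of 0.0478 (limma-trend), and was not called without any 1 of the WT 0 h libraries or without WT 24 h replicate 1 or 2.

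In β8ITG-cKO the rod and shared photoreceptor genes rose. The 18 summed to 358, 204 and 281 FPKM at 0 h and 1082, 974 and 1160 FPKM at 24 h, a ratio of means of 3.82, and the times did not overlap. All 18 were called higher, with log2 differences from 1.24 for Abca4 to 2.76 for Rbp3. Of 36 genes tested, 27 were called higher and 1 lower, beside 11.3% of all genes called higher and 3.77% called lower, and the times did not overlap, with 24 h above, in 32 of the 36 and in 42.9% of all genes tested. The median log2 difference was 1.54, and 0.23 over all genes. With a fold change over 4 required, 9 were called. With each library scaled to a common median FPKM, 24 were called higher and 1 lower, and calls over all genes were 1173 higher and 878 lower in place of 1719 and 575. Sag was at 52.4, 33.9 and 44.1 FPKM at 0 h and 172, 173 and 241 FPKM at 24 h, a log2 difference of 2.14 (standard error 0.19, adjusted p = 0.000118, limma-trend).

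Outside the 18 genes, Prkca, Grm6, Cabp5, Gad1, Calb2, Nefl and Pde6h were also called higher at 24 h than at 0 h in β8ITG-cKO. Grm6 had 0.342, 0.313 and 0.282 FPKM at 0 h and 2.49, 3.75 and 2.85 FPKM at 24 h, a log2 difference of 1.61. Its mean at 0 h lay under 0.5 FPKM, so that it passed the filter only through its level at 24 h. Glul and Rlbp1 were called higher too, with log2 differences of 1.08 and 0.95, though neither was called between the genotypes at 24 h with all 6 libraries in the fit of these 2 groups. Trpm1 had 16.5, 14.5 and 15.1 FPKM at 0 h, a log2 difference of 0.53 that missed the 2-fold rule. Slc6a9 had 11.72, 8.95 and 9.15 FPKM at 0 h, a difference of 0.19 that turned to -0.08 once each library was scaled to a common median FPKM.

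Rpe65 and Rgr, the 2 genes of the pigment epithelium besides Rlbp1 in the set followed, were lower at 24 h than at 0 h in both genotypes. Rpe65 went from 2.73, 4.13 and 1.401 FPKM to 0.159, 0.339 and 0.0204 FPKM in WT (log2 difference -1.62, adjusted p = 0.00587, limma-trend) and from 0.772, 1.85 and 2.23 FPKM to 0.573, 0.110 and 0.0417 FPKM in β8ITG-cKO (-1.06, adjusted p = 0.0128, limma-trend, under the difference of 2 FPKM). Rgr went from 2.37, 7.41 and 4.03 FPKM to 0.136, 0.474 and 0.491 FPKM in WT and from 1.62, 3.86 and 2.63 FPKM to 0.521, 0.960 and 0.603 FPKM in β8ITG-cKO, with log2 differences of -1.95 and -1.09. In WT both genes passed the filter only through their level at 0 h, and Rpe65 was not called without WT 0 h replicate 2. Rpe65 passed the filter only through its level at 0 h in β8ITG-cKO too, where its mean at 24 h was 0.241 FPKM. With 1 library left out, the WT difference ran from -1.91 to -1.36 for Rpe65 and from -2.26 to -1.60 for Rgr. In both genes and both genotypes, each library at 24 h lay below each library at 0 h. The interaction of genotype and time was 0.56 for Rpe65 and 0.85 for Rgr, with adjusted p-values of 0.454 and 0.256 (limma-trend). A further list of 7 pigment epithelium genes outside the set went both ways over time. In WT 6 were tested, with 2 called higher at 24 h and 1 lower. In β8ITG-cKO 5 were tested, with 1 called higher and 1 lower. Mean Rdh5 rose from 3.01 to 22.2 FPKM in WT and from 2.02 to 21.6 FPKM in β8ITG-cKO. Mean Ttr fell from 19.4 to 0.513 FPKM and from 9.65 to 2.53 FPKM in the same order.

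A test of whether the change over time differed between the genotypes was made in 1 fit over the 12 libraries. Of the 36 tested, 26 passed at the 0.05 threshold, all with a larger value in β8ITG-cKO, beside 6.83% of all genes in that direction and 2.56% in the other. They were 9 of 10 rod genes, all 8 shared photoreceptor genes, 2 of 6 cone genes, all 4 bipolar genes, 3 of 4 amacrine and ganglion genes and 0 of 4 genes of Müller glia and the pigment epithelium. The filter was a mean of 0.5 FPKM over the 12 libraries. Opn1mw and Grm6 passed it with means under 0.5 FPKM in WT at 24 h and in β8ITG-cKO at 0 h. For both, passing the filter was thus tied to the pattern tested. The median was 2.84 over the 36, and 2.31 over the 35 tested without WT 0 h replicate 2. Without that library the number was 23, and leaving out any 1 library gave 15 to 29. It was 15 without β8ITG-cKO 0 h replicate 2, 16 without β8ITG-cKO 0 h replicate 3 and 17 without β8ITG-cKO 24 h replicate 1 or 3. Shares of all genes passing with a library left out are not given. This comparison shares its libraries with those above.

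The make-up of the photoreceptor signal was examined as each gene's share of the summed FPKM of the 18 rod and shared photoreceptor genes, after the levels had been seen and with no test. FPKM is scaled by length, so the shares can be compared between genes. Gnat1 made up 17.3% to 23.9% of the sum in every library and Pde6a 6.50% to 7.85%, although the sum itself ranged from 86.2 to 1212 FPKM. WT 0 h replicate 2, the library with the highest sum, had 18.7% for Gnat1, 23.2% for Sag and 5.52% for Rbp3.

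For 3 genes the 3 β8ITG-cKO libraries at 24 h lay above all the other 9 libraries. Rbp3 had 8.61% to 9.85% there and 4.48% to 6.25% elsewhere. Rp1, a protein of the photoreceptor axoneme, had 3.50% to 4.46% there and 1.58% to 2.83% elsewhere, and Crx had 2.73% to 3.40% there and 1.28% to 2.45% elsewhere. For 0 of the 18 genes did these 3 libraries lie below all others. The libraries of β8ITG-cKO at 24 h and WT 0 h replicate 2, which had sums of 974 to 1212 FPKM, thus differed in the shares of these genes.

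A second pattern followed genotype at both times. Sag made up 20.9% to 24.1% of the sum in the 6 WT libraries and 14.6% to 20.8% in the 6 β8ITG-cKO libraries. Nr2e3 made up 0.938% to 1.29% in WT and 0.711% to 0.918% in β8ITG-cKO. These were the 2 of 18 genes whose shares did not overlap between the genotypes, and genotype and strain background cannot be told apart here either. Nr2e3 shares exonic bases with the annotated gene Gm15507 on the same strand, so its reads may be divided between them.

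**Figure D4:**
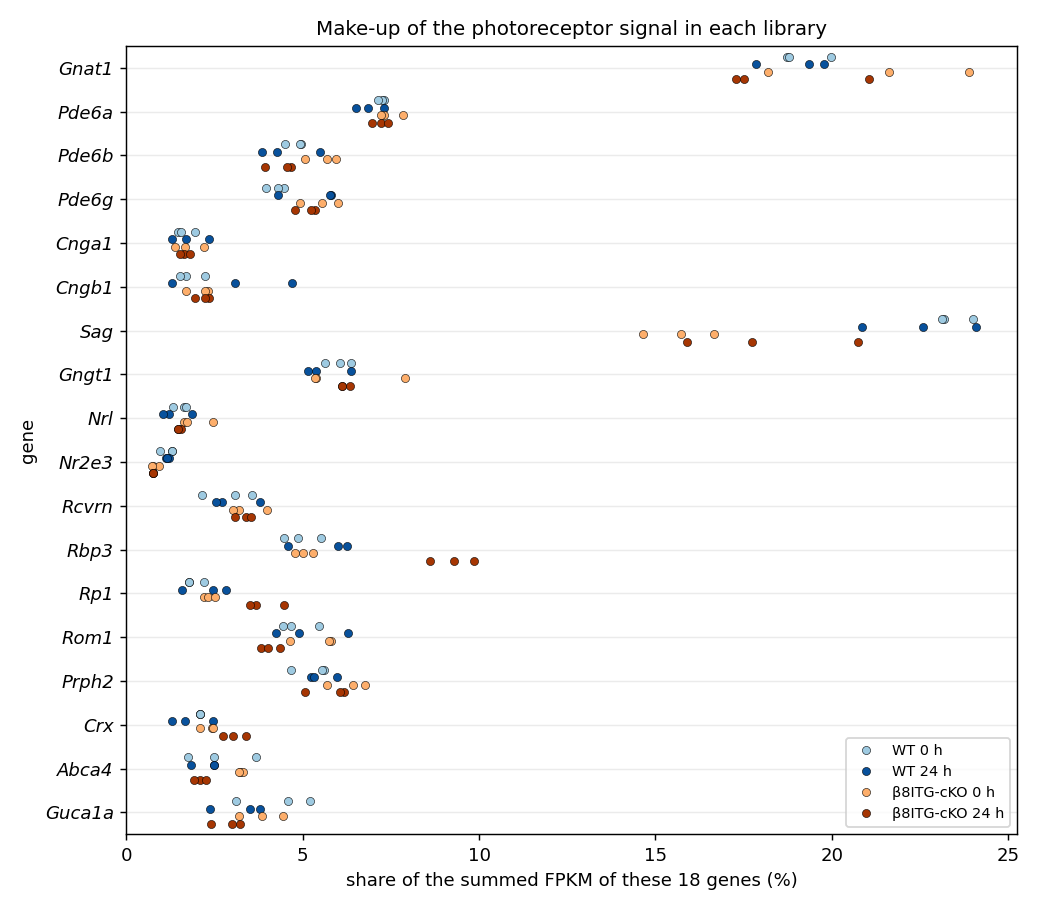
Share (%) of each of the 18 rod and shared photoreceptor genes (y axis) in their summed FPKM (x axis), with 1 point per library coloured by group. Rbp3, Rp1 and Crx stand higher in the β8ITG-cKO libraries at 24 h than in the other 9, and Sag and Nr2e3 separate the 6 WT from the 6 β8ITG-cKO libraries.

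Further retinal genes that are not among the 38, in lists also chosen with earlier results of these data known, gave the following counts. Of 30 other photoreceptor genes, 29 were tested at 24 h, 26 were called higher in β8ITG-cKO and 0 lower, with a median log2 difference of 2.24. The 3 with the highest mean were Gnb1, a transducin β subunit that many cells make (121, 118 and 115 FPKM against 86.4, 101 and 75.7 FPKM, not called), Tulp1, a photoreceptor transport protein (76.1, 66.2 and 66.0 FPKM against 6.20, 18.1 and 25.2 FPKM, called), and Unc119, a photoreceptor lipid-binding protein (56.2, 55.7 and 55.9 FPKM against 8.84, 17.4 and 16.4 FPKM, called). Of 26 other inner retina genes, 15 were tested and 8 called higher, with a median of 1.43. Tfap2a, a factor the lens also makes, had a log2 difference of -0.54 and Sncg, a synuclein of ganglion cells, of -0.10, and neither was called. Of 6 other Müller glia genes 1 was called of 5 tested, and of 7 other pigment epithelium genes 0 were called of 4 tested.

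Markers of other cells around the lens were summed in the same libraries. Red blood cell genes summed to 87.4 to 195 FPKM in β8ITG-cKO and 36.0 to 220 FPKM in WT at 24 h, which overlapped, with 0 of 5 called. Corneal epithelium genes summed to 140 to 192 FPKM against 156 to 447 FPKM, most of it Aldh3a1, also with 0 of 5 called, and neutrophil and macrophage genes to 35.2 to 62.3 FPKM against 59.2 to 90.6 FPKM, with 0 of 6 tested called. Melanin pigment genes summed to 13.4 to 25.1 FPKM against 28.8 to 34.8 FPKM, with Pmel called lower. Vascular endothelium genes summed to 5.47 to 7.38 FPKM against 0.740 to 2.02 FPKM. Kdr alone had a mean of 3.72 FPKM of the mean sum of 6.71 FPKM in β8ITG-cKO. Of the 3 tested, only Kdr was called higher. Pecam1 and Cdh5, with WT means of 0.317 and 0.414 FPKM, passed the filter only through their level in β8ITG-cKO. Emcn was listed at 0 in all WT libraries at 24 h. The lens epithelium and fiber lists had 0 called of 4 and 6. The part of these cells in the differences of the retinal genes was not tested.

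At 0 h red blood cell genes were lower in β8ITG-cKO, at 6.52 to 15.8 FPKM against 68.0 to 153 FPKM with 4 of 5 called, and corneal epithelium genes stood at 539 to 920 FPKM against 212 to 271 FPKM, nearly all of it Aldh3a1, the 1 called higher of 3 tested. The corneal keratin Krt5 stood at 0 to 0.430 FPKM against 0.152 to 3.17 FPKM and was not called. Over time in β8ITG-cKO, red blood cell genes rose to 87.4 to 195 FPKM with 4 of 5 called, beside the rise of the photoreceptor genes. In WT 0 h replicate 2, where the 18 photoreceptor genes were at 1212 FPKM, red blood cell genes were at 73.7 FPKM and vascular endothelium genes at 4.25 FPKM, against 153 and 1.65 FPKM in replicate 1 and 68.0 and 0.677 FPKM in replicate 3. Most of the vascular sum in replicate 2 was Kdr, at 3.79 FPKM, against 1.25 FPKM in replicate 1 and 0.423 FPKM in replicate 3. Tek was lower in replicate 2 than in both others and Cdh5 lay between them. Pecam1, at 0.214 FPKM, and Emcn, at 0.130 FPKM, were higher there. The part of these markers in the results was not tested.

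**Figure D5:**
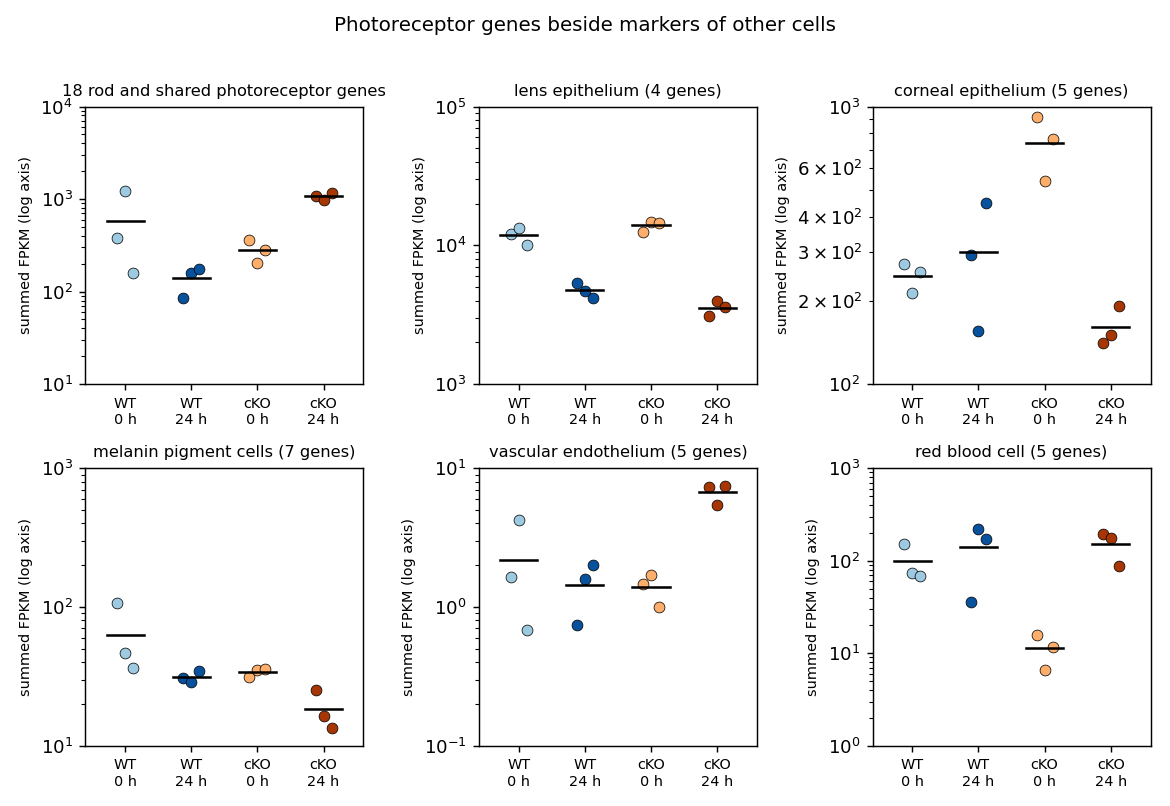
Summed FPKM (y axes, log scale) of the 18 rod and shared photoreceptor genes and of 5 lists of marker genes for other cells, with 1 point per library and a line at the mean of 3 libraries. Vascular endothelium genes, like the photoreceptor genes, have their highest group mean in β8ITG-cKO at 24 h, whereas red blood cell genes overlap between the genotypes at 24 h.

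Reads of some of the 38 genes could be divided with other genes. In the GENCODE vM21 annotation, 9 of the 38 share exonic bases with another gene, among them Opn1sw with Calu, Pde6h with Arhgdib, Prkca with Apoh, Slc6a9 with B4galt2 and Nefl with Nefm, each on the opposite strand. The library kit keeps strand, but whether the counting used it is not given in the sources used here, so the values of these genes are less certain.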

How the data were processed

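RNA from lens capsules and attached lens cells was sequenced as paired reads from 12 libraries, 3 in each of 4 groups set by genotype and time. The authors deposited FPKM per gene in 4 tables. The submitters' processing notes name FastQC, cutadapt 1.12, TopHat2 2.1.0, Cuffdiff 2.2.1 and the builds mm10 and GRCm38.p5. The strand setting of the counting is not given in the sources used here. The tables also hold fold changes, p-values and q-values of the authors' own comparisons, group means and Cuffdiff group values, none of which were used. Read counts were not used here, depth is unknown, and FPKM summed to 446531 to 740140 per library.

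Each pair of groups was tested with limma-trend (limma 3.58.1, R 4.3.3) on log2(FPKM + 1), leaving out genes whose mean in the compared libraries was under 0.5 FPKM, with Benjamini-Hochberg adjustment over all of them. Fold changes on this scale understate the change of low genes. The interaction was fitted over all 12 libraries and called on adjusted p alone. A p-value measures the spread between these libraries. The scripts were tested on simulated data. Alternatives changed the pseudocount (0.1), the filter, the call rule, the scaling, the samples fitted, the replicate block or left out 1 library. The members and gene lists were chosen with earlier results of these data known. FPKM of each library are given for the 4 genes of each class with the highest mean, for rod and cone counterparts and for genes whose call differed from most of their class. Cngb1, Nrl, Nr2e3, Rp1, Crx and Rpe65 were named elsewhere after their values were seen.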

Additional observations from a re-analysis of the deposited data

Results flagged for a closer look

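The change from 0 h to 24 h differed between the genotypes by the limma-trend test of the difference itself (adjusted p of at most 0.05 over all genes tested) for 26 retinal genes. The change in β8ITG-cKO minus that in WT, on the log2(FPKM + 1) scale, was 3.38 for Gnat1, 3.48 for Pde6a, 3.15 for Pde6b, 3.02 for Pde6g, 3.03 for Cnga1, 3.81 for Sag, 3.55 for Gngt1, 2.91 for Nrl, 2.80 for Nr2e3, 3.25 for Rcvrn, 4.13 for Rbp3, 3.73 for Rp1, 2.96 for Rom1, 3.24 for Prph2, 3.77 for Crx, 2.77 for Abca4, 3.31 for Guca1a, 1.57 for Opn1mw, 2.77 for Pde6h, 1.43 for Prkca, 2.13 for Grm6, 1.33 for Trpm1, 2.97 for Cabp5, 2.80 for Gad1, 3.01 for Calb2 and 2.87 for Nefl. Without WT 0 h replicate 2, 23 passed, and the value for Gnat1, for one, was 2.64. Gnat1, Pde6b, Pde6g, Cnga1, Nrl, Nr2e3, Rcvrn, Prph2, Pde6h, Trpm1 and Nefl lost the call under at least 1 alternative, Rcvrn most often. Opn1mw and Grm6 had means under 0.5 FPKM in WT at 24 h and in β8ITG-cKO at 0 h. In WT the libraries at 0 h had a median coefficient of variation of 95.7% over the 18 rod and shared photoreceptor genes, and the part of that spread in these values was not tested.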

How the results depend on the processing

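Of the calls at 24 h between the genotypes, 22 of 26 held under every alternative run, the exceptions being Cngb1, Pde6c, Prkca and Nefl. The same was true of 1 of 5 calls over time in WT (Rgr), 8 of 28 over time in β8ITG-cKO and 15 of 26 for the interaction. The count of retinal genes called over time in WT was 5, and became 2 with no filter on low values, 8 on adjusted p alone, 3 with a fold change over 4, 10 with libraries scaled to a common median and 17 in 1 fit over all 4 groups. In β8ITG-cKO over time, 28 became 9 with a fold change over 4, and for the interaction 26 became 15 with no filter. The cause was not tested, except that a stricter fold rule can only remove calls. Apart from the scaled libraries, the share of all genes called under an alternative is not given, here or below.

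With 1 library left out at a time, the counts ran from 24 to 29 at 24 h between the genotypes, 0 to 1 at 0 h, 2 to 23 over time in WT, 23 to 28 over time in β8ITG-cKO and 15 to 29 for the interaction. The spread of each gene was then estimated from the libraries left, moderated by the trend across all genes. At 0 h, 21 genes changed sign, none of them called: the log2 difference ran from -1.18 to 0.26 for Gnat1, -1.25 to 0.18 for Pde6a, -1.10 to 0.35 for Pde6b, -0.89 to 0.43 for Pde6g, -1.16 to 0.25 for Cnga1, -1.12 to 0.21 for Cngb1, -1.24 to 0.11 for Gngt1, -1.02 to 0.38 for Nrl, -1.22 to 0.44 for Rcvrn, -1.25 to 0.23 for Rbp3, -0.98 to 0.44 for Rp1, -1.03 to 0.22 for Rom1, -0.99 to 0.42 for Prph2, -1.06 to 0.24 for Crx, -0.63 to 0.22 for Abca4, -1.25 to 0.056 for Guca1a, -0.37 to 0.64 for Arr3, -0.50 to 0.38 for Gnat2, -0.28 to 0.088 for Pde6c, -0.38 to 0.041 for Prkca and -0.86 to 0.11 for Calb2. Slc6a9 over time in β8ITG-cKO ran from -0.23 to 0.46, and was -0.080 with libraries scaled to a common median.

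Replicate numbers are shared between groups in the labels, but samples of the same number did not deviate together (correlations from -0.218 to 0.081), so they were not treated as paired. With the replicate block, 25 retinal genes were called at 24 h, Cngb1 not among them, 0 at 0 h, 4 over time in WT, 28 over time in β8ITG-cKO and 24 for the interaction. Sequencing depth is unknown, so the error of low values such as those of the cone genes rests on 3 libraries per group and the trend across all genes.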
